A study of Mus musculus with 48 samples.

Results

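RNA of mouse livers lacking the transcription factor HNF4α was compared with RNA of wild-type livers, gene by gene. The members are the 16999 genes, of 37583 listed in the deposited expression table, that had a value of 10 or more in at least 2 of the 5 libraries concerned. Those libraries are 3 wild-type livers (WT) and 2 livers with the genotype HNF4a lox/lox / Alfp-Cre (HNF4aKO), all from F1 mice (C57Bl6/CBA) that were not treated. A further 3 libraries of C/EBPa lox/lox / Alfp-Cre livers (CEBPaKO) entered the same statistical fit, and they are compared with HNF4aKO only where stated. The sample labels give an age of 60 days postnatal for all of these libraries, whereas the series' own design text places the RNA at embryonic day 18.5 (E18.5), so the age is uncertain. Alfp-Cre carries regulatory sequences of the albumin and alpha-fetoprotein genes and deletes floxed alleles in hepatoblasts and their descendants, so blood, endothelial and other liver cells keep their Hnf4a alleles. Nothing in the labels says that the RNA replicates came from separate animals, and p-values therefore measure the spread between these libraries, which may be partly technical.

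HNF4α is a nuclear receptor that binds DNA as a homodimer, at paired short half-sites, and it is a central regulator of the hepatocyte. Together with C/EBP and FOXA factors it maintains the genes of bile acid synthesis, drug metabolism, amino acid breakdown, blood clotting and lipoprotein secretion. In its absence hepatocytes are known to store lipid, to lose epithelial features and to secrete less of many plasma proteins.

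The values were reads per gene that the authors had normalised with DESeq and rounded, and they summed to between 20016344 and 25992243 per library in WT and HNF4aKO. Hnf4a itself (chr2:163332544-163398646 in mouse build mm9) was at 9098, 4948 and 6718 in WT replicates 1, 2 and 3 and at 1238 and 2444 in HNF4aKO replicates 1 and 2, or 26.6% of the WT mean. The groups did not overlap, and the log2 change with its standard error was -1.95 ± 0.45 (adjusted p = 0.0320, limma with Benjamini-Hochberg adjustment over all 16999 genes, n = 2 against 3). Hnf4a lost its call without WT replicate 1 or 3 or either HNF4aKO replicate (adjusted p of 0.0528 to 0.419). Reads over exons that Cre leaves in place would still be counted in such a value, and which exons are floxed is not given in the sources used here.

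HNF4aKO replicate 1 held RNA of skeletal muscle. The 21 skeletal muscle markers examined made up 2.58% of its total, against 0.00193% of HNF4aKO replicate 2 and 0.000882% to 0.00130% of the WT libraries. Of these markers, 20 were more than 10 times higher in replicate 1 than in any other RNA library, and the entry used for Tnnc1 was at 0 throughout. A gene was therefore said to rise or fall only if limma's adjusted p was under 0.05 and the groups did not overlap. Both HNF4aKO libraries also had to be at least 2-fold from the WT mean in the same direction. Of the 850 genes with adjusted p under 0.05 these further conditions removed 1, so they hardly screened the calls for muscle RNA. The Y-linked genes and Xist also varied within WT, where Ddx3y was at 1317, 109 and 11 and Xist at 92, 5915 and 27836, although the labels describe male mice, and in HNF4aKO they were at 31 and 15 and 1040 and 3941. None of the 4 such genes tested passed, nor had any of them an unadjusted p under 0.05. The deviations of WT replicate 3 from the WT mean fell with GC content (rank correlation -0.41), and those of WT replicates 1 and 2 rose with it (0.24 and 0.26). Deviations from a group mean balance out, so opposite signs within a group are partly forced.

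Between WT and HNF4aKO livers the test called 849 genes, or 4.99% of those tested: 570 fell (3.35%) and 279 rose (1.64%). The genes that fell had a median WT mean of 960.5 reads, and 277 of them had a WT mean of 1000 or more. The genes that rose started lower, from a median WT mean of 83.7 reads. The median fold was 7.55 for the falls and 5.71 for the rises, and 220 falls and 97 rises exceeded 10-fold on the scale of log2 (value + 1). Of the falls, 74 ended at an HNF4aKO mean under 10, and 6 of these were listed at 0 in both libraries. Among the rises, 24 were more than 4 times higher in the muscle-containing replicate 1 than in replicate 2, and 1 was the other way round. The groups also failed to overlap, whatever the test, at 7783 genes (45.8%), 3854 of them higher and 3929 lower, and the median log2 change of all genes was 0.02. The filter kept 37 of the rises through the HNF4aKO columns alone and 63 of the falls through the WT columns alone, and such genes had to differ to be tested.

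Leaving out 1 library moved these counts widely. Without HNF4aKO replicate 1, 210 genes passed (23 rises and 187 falls), and without HNF4aKO replicate 2, 471 did (186 and 285). The number was 383 without WT replicate 1 (89 and 294), 529 without WT replicate 3 (144 and 385) and 658 without WT replicate 2 (179 and 479), against 1359 without CEBPaKO replicate 3 (569 and 790) and 1083, with 380 rises, without CEBPaKO replicate 2. Without HNF4aKO replicate 2 the only knockout library was the one with muscle RNA. The 9 tested skeletal muscle markers then had a median log2 change of 9.80, against 5.84 in the main fit and 1.03 without HNF4aKO replicate 1. The part of muscle RNA in the rises without HNF4aKO replicate 2 was not tested. A knockout group of 1 library is assumed in such a fit to vary like the other groups. Of the 208 changed genes that are named by rank or belong to a list, 76 passed in all 8 such fits, 69 of 171 falls and 7 of 37 rises. Calls lost in this way are given beside each gene with the libraries concerned. Genes that did not pass and are named below as examples were chosen after their values were seen. The gene lists were also chosen with earlier results of these data known, so their counts and medians are descriptions and not independent support.

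**Figure D1:**
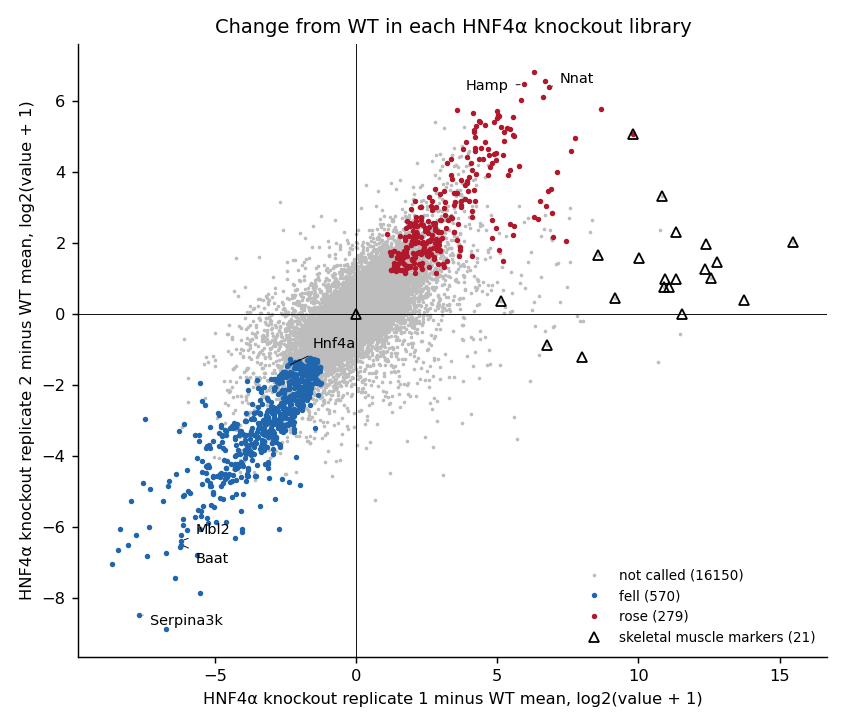
Change of each tested gene from the WT mean on the log2 (value + 1) scale in HNF4aKO replicate 1 (x axis) and replicate 2 (y axis), with genes that rose, fell or did not pass coloured apart and skeletal muscle markers as triangles. The 570 falls and 279 rises lie where both libraries moved the same way, whereas the skeletal muscle markers lie far to the right of their height on the y axis, being much higher in replicate 1.

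Bile acid genes fell from synthesis to export. Of 21 tested members 15 fell and none rose, with a median log2 change of -2.96 against 0.02 over all genes, and 10 fell without WT replicate 1 or without either HNF4aKO replicate. Among the synthesis enzymes, 6 of 9 fell. Cyp7a1, the rate-limiting enzyme, was at 2318, 1740 and 3330 in WT against 108 and 89 in HNF4aKO (-4.59 ± 0.47, adjusted p = 0.000517). Cyp8b1, which adds the hydroxyl group that makes cholic acid, went from 4224, 4197 and 4367 to 287 and 164 (-4.29 ± 0.67, adjusted p = 0.00416). Acox2, the peroxisomal oxidase that shortens the side chain, was at 4118, 2970 and 2341 and then at 214 and 145 (-4.11 ± 0.51, adjusted p = 0.00111). Each of these enzymes was several-fold below the lowest WT library in both knockout livers. Scp2, a sterol carrier and thiolase of the same side-chain pathway, fell to 13.2% of its WT mean (-2.90 ± 0.36, adjusted p = 0.00122). Both conjugation enzymes fell further than any synthesis enzyme: Baat, which joins bile acids to taurine or glycine, to 1.09% of the WT mean (-6.34 ± 0.56, adjusted p = 0.000273), and the bile acid CoA ligase Slc27a5 from 2487, 1882 and 1350 to 70 and 49 (-4.96 ± 0.59, adjusted p = 0.000935).

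Transporters on both faces of the hepatocyte fell as well. The 3 tested uptake transporters all fell. Slco1b2, an organic anion transporter of the blood-facing membrane, was at 4948, 4849 and 1795 in WT against 49 and 64 in HNF4aKO (-5.94 ± 0.57, adjusted p = 0.000373). Slc10a1 (NTCP), the sodium-dependent bile acid importer, was at 4981, 5286 and 7541 and 673 and 323 (-3.64 ± 0.39, adjusted p = 0.000629). Of 7 export genes 4 fell, led by Abcb11, the bile salt export pump, which went from 6308, 5507 and 3860 to 646 and 417 (-3.30 ± 0.37, adjusted p = 0.000716). The sterol exporter subunit Abcg5 was at 122, 73 and 260 and 19 and 1 (-4.40 ± 1.02, adjusted p = 0.0330), with the knockout libraries far apart from each other. Abcg5 lost its call without WT replicate 1 or 3 or HNF4aKO replicate 2 (adjusted p of 0.112 to 0.192). Abcc3, which exports bile acids back to blood, was the only export gene with a knockout library above its mean in WT, and missed the threshold (0.05 ± 0.47, adjusted p = 0.960).

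Drug-metabolising enzymes fell in large number. Of 42 tested members 31 fell and none rose (median log2 change -3.16). Cyp2e1, which oxidises ethanol and paracetamol, was at 12492, 10077 and 5381 in WT against 117 and 92 in HNF4aKO (-6.39 ± 0.50, adjusted p = 0.000180). Cyp2f2, an enzyme of periportal hepatocytes, was at 587, 596 and 744 and 18 and 19 (-5.04 ± 0.64, adjusted p = 0.00128). Cyp2a12 was at 1094, 1114 and 1443 and 38 and 20 (-5.40 ± 0.44, adjusted p = 0.000180), and Cyp2c54 fell from 194, 224 and 442 to 0 and 2 (-7.28 ± 0.81, adjusted p = 0.000716). Cyp2c54 was thus nearly absent from both knockout libraries, and Cyp2e1 remained the highest of these 4 in reads. All 5 listed members of the Cyp3 family, which handles many drugs and steroids, fell. Cyp3a41a went from 875, 924 and 839 to 13 and 12 (-6.03 ± 0.56, adjusted p = 0.000348), and Cyp3a25 from 1616, 1188 and 1093 to 7 and 19 (-6.66 ± 0.92, adjusted p = 0.00210).

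The conjugating enzymes were less uniform, with 7 of 12 falling. The sulfotransferase Sult1b1 fell from 22, 56 and 20 to 1 and 1 (-3.92 ± 1.00, adjusted p = 0.0487). Sult1b1 lost its call without WT replicate 1, 2 or 3 or CEBPaKO replicate 1 or 2 or either HNF4aKO replicate (adjusted p of 0.0547 to 0.286). Its call was also lost after either rescaling of the libraries or with the wider filter on low values (adjusted p of 0.0521 to 0.0891), and with 10 added before the log2 the change was -1.86 (adjusted p = 0.114). Ugt1a1, which conjugates bilirubin, fell from 1810, 896 and 1709 to 96 and 102 (-3.81 ± 0.56, adjusted p = 0.00294), whereas Ugt2b34 was at 1905 and 2487 against 2595, 2685 and 4406 in WT (-0.52 ± 0.44, adjusted p = 0.517). Among reductases and hydrolases 5 of 8 fell, including the carboxylesterase Ces1d (4136, 3278 and 1510 in WT, 112 and 136 in HNF4aKO, -4.46 ± 0.51, adjusted p = 0.000824) and the alcohol dehydrogenase Adh1, which kept 11.1% of its WT mean (-3.16 ± 0.46, adjusted p = 0.00272). By whole gene families, 9 of 10 tested Cyp2c genes, 9 of 9 Cyp3a and 5 of 6 Cyp4a genes fell. So did 5 of 9 Cyp2d, 6 of 11 Ces and 4 of 8 Sult genes. Among all genes tested, 3.35% fell and 1.64% rose. The glutathione transferase family (Gst) had 1 fall and 2 rises among 18, and none of 6 Cyp4f and 9 Slc22a genes passed, 2 of the Cyp4f and 0 of the Slc22a genes having an unadjusted p under 0.05 in limma's test. None of 18 major urinary protein (Mup) genes and none of 73 ribosomal protein genes passed in either direction. None of either kind had an unadjusted p under 0.05 in limma's test, and their median log2 changes were 1.31 and 0.52. Copies within the Cyp2c, Cyp3a, Cyp4a and Mup families are near-identical in sequence, and how the authors' counting divided shared reads among them is not given in the sources used here, so values of single copies are uncertain. Without HNF4aKO replicate 1, and likewise without replicate 2, the number of falls in the list was 17.

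Fatty acid oxidation had falls in each of its routes. Of 42 tested members 21 fell and none rose (median log2 change -1.91). Omega oxidation, which starts at the far end of the fatty acid, had 6 falls among 8 genes. Cyp4a14 was at 3060, 3369 and 3877 in WT against 68 and 30 in HNF4aKO (-6.21 ± 0.80, adjusted p = 0.00137), and Cyp4a10 went from 1156, 1027 and 2279 to 12 and 2 (-7.80 ± 0.86, adjusted p = 0.000680). In the mitochondrial route 7 of 15 fell. The medium-chain CoA ligase Acsm1 led them, from 1620, 1732 and 1337 to 101 and 108 (-3.88 ± 0.34, adjusted p = 0.000273), and kept 6.69% of its WT mean. Peroxisomal genes fell in 3 of 8 cases, led by the bifunctional enzyme Ehhadh at 2196, 1084 and 3055 in WT against 244 and 191 in HNF4aKO (-3.16 ± 0.59, adjusted p = 0.0108). In ketone body synthesis Bdh1, which makes the final product, fell from 6062, 6183 and 4772 to 614 and 769 (-3.03 ± 0.42, adjusted p = 0.00201). Among carriers and regulators Vnn1, a vanin of the pantetheine cycle, fell most, from 350, 315 and 319 to 70 and 39 (-2.62 ± 0.41, adjusted p = 0.00419), followed by the fatty acid binding protein Fabp1 (-2.53 ± 0.44, adjusted p = 0.00730). Ehhadh lost its call without WT replicate 1 or either HNF4aKO replicate (adjusted p of 0.0502 to 0.0943) and Vnn1 without HNF4aKO replicate 2 (adjusted p = 0.0501). Fabp1 lost its call without either HNF4aKO replicate (adjusted p of 0.0677 to 0.0762). Calls in this list were fewest without either HNF4aKO replicate, and the number of falls was 11 without WT replicate 1. The list's median log2 change moved little, being -2.04 without HNF4aKO replicate 1, -1.80 without HNF4aKO replicate 2 and -1.91 without WT replicate 1.

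Genes of amino acid breakdown fell within the urea cycle and outside it. Of 39 tested members 23 fell and none rose (median log2 change -2.23). Within the urea cycle 3 of 7 fell. Otc, ornithine transcarbamylase, was at 1280, 1156 and 2185 in WT against 43 and 62 in HNF4aKO (-4.81 ± 0.39, adjusted p = 0.000180), and Slc25a15, the ornithine carrier of the mitochondrial membrane, kept 18.1% of its WT mean (-2.44 ± 0.35, adjusted p = 0.00278). Both handle ornithine at the mitochondrion. In tryptophan breakdown Kmo, the kynurenine hydroxylase, went from 766, 589 and 468 to 30 and 17 (-4.66 ± 0.50, adjusted p = 0.000629), and the later enzymes Kynu (-3.70 ± 0.46, adjusted p = 0.00115) and Haao (-2.86 ± 0.42, adjusted p = 0.00285) fell with it. In tyrosine breakdown Hgd, which opens the aromatic ring, went from 2007, 2159 and 1481 to 123 and 146 (-3.78 ± 0.61, adjusted p = 0.00481). Hgd lost its call without HNF4aKO replicate 1 (adjusted p = 0.0758). Of the remaining 20 catabolic genes 14 fell. Bhmt, which remethylates homocysteine with betaine, was the largest, at 18983, 11684 and 11219 in WT against 297 and 291 in HNF4aKO (-5.52 ± 0.62, adjusted p = 0.000716). Hao1, the peroxisomal glycolate oxidase, followed with 1867, 1573 and 2295 and 61 and 79 (-4.75 ± 0.38, adjusted p = 0.000180), and the histidine-pathway enzyme Uroc1 kept 5.46% of its WT mean (-4.29 ± 0.58, adjusted p = 0.00185). For this list the number of falls was 10 without HNF4aKO replicate 1 and 14 without HNF4aKO replicate 2.

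Of 22 genes of glucose and glycogen metabolism 9 fell and none rose (median log2 change -1.67). G6pc, the catalytic subunit of glucose-6-phosphatase that releases free glucose, was at 5442, 3833 and 7562 in WT against 140 and 212 in HNF4aKO (-4.96 ± 0.80, adjusted p = 0.00481). Gckr, the inhibitor of glucokinase, went from 2400, 1320 and 878 to 106 and 143 (-3.50 ± 0.45, adjusted p = 0.00128). Gys2, the liver glycogen synthase, kept 9.73% of its WT mean (-3.36 ± 0.31, adjusted p = 0.000348). The falls thus included a step of glucose release and of glycogen storage. G6pc lost its call without HNF4aKO replicate 1 (adjusted p = 0.0824). Without HNF4aKO replicate 1 the number of falls in this list was 4.

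Among 27 apolipoprotein and lipoprotein genes 5 fell and 1 rose (median log2 change -1.33). Apob, the backbone protein of very-low-density lipoprotein, was at 47448, 22214 and 105213 in WT against 1347 and 1768 in HNF4aKO (-4.96 ± 0.70, adjusted p = 0.00243). Mttp, which loads lipid onto Apob, kept 15.4% of its WT mean (-2.70 ± 0.34, adjusted p = 0.00129), Lipc, hepatic lipase, went from 3400, 3029 and 3300 to 213 and 196 (-3.98 ± 0.42, adjusted p = 0.000629), and Cideb, a lipid droplet protein, from 3568, 3533 and 1669 to 318 and 270 (-3.23 ± 0.43, adjusted p = 0.00153). Apob, Mttp and Cideb act in lipoprotein assembly. None of the 4 receptors passed, the highest in WT reads being Lrp1 and Scarb1, and none had an unadjusted p under 0.05 in limma's test. The single rise was Angptl6, from 454, 508 and 178 to 1159 and 1482 (1.92 ± 0.47, adjusted p = 0.0428). Apob lost its call without HNF4aKO replicate 1 (adjusted p = 0.0534) and Angptl6 without WT replicate 1 or 3 or CEBPaKO replicate 1 or either HNF4aKO replicate (adjusted p of 0.0595 to 0.235). The number of falls in this list was 3 without HNF4aKO replicate 1.

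Clotting and complement genes fell in part. Of 26 coagulation genes 9 fell and none rose (median log2 change -1.46), and of 23 complement genes 12 fell and none rose (median -2.45). F9, the clotting factor that is deficient in haemophilia B, was at 1297, 1041 and 1164 in WT against 13 and 50 in HNF4aKO (-5.44 ± 0.58, adjusted p = 0.000629). Proz, a vitamin K dependent cofactor of factor X inhibition, went from 9004, 4114 and 8487 to 359 and 269 (-4.45 ± 0.66, adjusted p = 0.00316). Factor X itself (F10) kept 13.8% of its WT mean (-2.86 ± 0.37, adjusted p = 0.00137), a smaller fall than that of F9. F13b, the carrier subunit of the fibrin-crosslinking enzyme, fell from 2569, 2095 and 3747 to 67 and 139 (-4.80 ± 0.66, adjusted p = 0.00208), and Hrg, histidine-rich glycoprotein, from 6192, 8184 and 9002 to 405 and 491 (-4.11 ± 0.45, adjusted p = 0.000629). In the contact pathway F12 led the falls, at 6963, 3265 and 6242 in WT against 643 and 947 in HNF4aKO (-2.74 ± 0.66, adjusted p = 0.0388). F12 lost its call without WT replicate 1 or 3 or CEBPaKO replicate 1 or either HNF4aKO replicate (adjusted p of 0.0524 to 0.358).

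In complement, 4 of 5 lectin pathway genes and 4 of 5 terminal components fell. The mannose-binding lectin Mbl2 kept 1.16% of its WT mean (-6.29 ± 0.45, adjusted p = 0.000180), and Masp2, the protease that it activates, went from 1593, 1387 and 1417 to 55 and 107 (-4.23 ± 0.43, adjusted p = 0.000517). C8a, a subunit of the pore that lyses cells, was at 2533, 1740 and 2772 and 52 and 105 (-4.94 ± 0.56, adjusted p = 0.000745), and C9, which completes that pore, was at 160, 89 and 173 and 7 and 13 (-3.68 ± 0.51, adjusted p = 0.00208). The genes that fell ranged from the recognition lectin to the final pore protein. Of the 5 genes of the first component C1ra alone fell, from 1505, 1418 and 1805 to 243 and 339 (-2.45 ± 0.58, adjusted p = 0.0356). This group had a median log2 change of 1.24, C1qc being at 1720, 2384 and 1320 in WT against 4275 and 5790 in HNF4aKO without passing (adjusted p = 0.0978), and C1qa and C1qb also had positive changes that did not pass (1.24 ± 0.72, adjusted p = 0.342 and 1.28 ± 0.69, adjusted p = 0.315). C1ra lost its call without WT replicate 1, 2 or 3 or either HNF4aKO replicate (adjusted p of 0.0701 to 0.333). Over the complement list the number of falls was 5 without HNF4aKO replicate 1, 6 without HNF4aKO replicate 2 and 7 without WT replicate 1, and over the coagulation list it was 5 without HNF4aKO replicate 1 and also 5 without HNF4aKO replicate 2.

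The list of plasma carriers and acute phase proteins had 4 falls and 1 rise among 30 tested (median log2 change -1.18). Serpina3k, a serine protease inhibitor, had the largest fall of all genes when ranked by the less changed knockout library, from 53144, 44680 and 4142 to 104 and 60 (-8.06 ± 1.03, adjusted p = 0.00128), and WT replicate 3 stood well below the other WT libraries. Apcs, serum amyloid P, kept 13.2% of its WT mean (-2.91 ± 0.34, adjusted p = 0.000888). Serpina6, the corticosteroid-binding globulin, moved the other way, from 173, 166 and 412 in WT to 4231 and 7276 in HNF4aKO (4.60 ± 0.52, adjusted p = 0.000748). Both inhibitor-family genes lie in the Serpina cluster of chromosome 12, Serpina6 at chr12:104884840-104895422 and Serpina3k at chr12:105576696-105583951. Alb (albumin) had values of 2758855, 1491169 and 3098691 in WT against 430946 and 863323 in HNF4aKO and did not pass (-1.94 ± 1.70, adjusted p = 0.537), nor did Ttr, Fga, Fgb or Fgg. The groups did not overlap at Alb, and its standard error is that of the fit of all 8 libraries, with the spread among CEBPaKO included. Over this list the number of falls was 2 without WT replicate 1 or WT replicate 2 or WT replicate 3 or HNF4aKO replicate 1, 8 without CEBPaKO replicate 3 and 9 without CEBPaKO replicate 2.

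Several nuclear receptors fell with HNF4α. Of 36 liver transcription factors 9 fell, the deleted Hnf4a among them, and none rose (median log2 change -0.21), and 5 of these were among the 14 tested nuclear receptors. Nr1i2 (PXR), a sensor of foreign compounds, was at 1372, 872 and 1048 in WT against 55 and 97 in HNF4aKO (-3.86 ± 0.45, adjusted p = 0.000888). Nr1h4 (FXR), the bile acid receptor, went from 1343, 1285 and 895 to 93 and 166 (-3.21 ± 0.40, adjusted p = 0.00127). Both receptors passed whichever library was left out. Nr1i3 (CAR), another sensor of foreign compounds, was at 659, 530 and 1129 and 27 and 26 (-4.74 ± 0.92, adjusted p = 0.0134), and Ppara, the regulator of fatty acid oxidation, at 1053, 457 and 1874 and 90 and 140 (-3.09 ± 0.69, adjusted p = 0.0275). Creb3l3, a membrane-bound factor of the fasting response, fell from 3303, 4300 and 2171 to 361 and 419 (-3.01 ± 0.49, adjusted p = 0.00488). Nr1i3 lost its call without WT replicate 1 or 3 or either HNF4aKO replicate (adjusted p of 0.0515 to 0.131) and Ppara without WT replicate 1 or 3 or either HNF4aKO replicate (adjusted p of 0.0900 to 0.287). Creb3l3 lost its call without HNF4aKO replicate 1 (adjusted p = 0.0824). In the C/EBP group none of 3 genes passed (none with an unadjusted p under 0.05 in limma's test). Cebpa was at 9999, 9594 and 5511 in WT against 3886 and 4500 in HNF4aKO (-0.95 ± 0.49, adjusted p = 0.291). Over the factors the number of falls was 2 without HNF4aKO replicate 1 and 3 without WT replicate 1 or WT replicate 3 or HNF4aKO replicate 2.

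Cell junction genes fell in 10 of 29 cases and rose in none (median log2 change -0.98). Cldn1, a sealing protein of tight junctions, was at 3907, 4279 and 7300 in WT against 433 and 502 in HNF4aKO (-3.41 ± 0.39, adjusted p = 0.000824). Dsc2, a desmosomal cadherin, went from 412, 337 and 412 to 25 and 47 (-3.45 ± 0.45, adjusted p = 0.00145), Pkp2, its plaque partner, kept 20.3% (-2.28 ± 0.35, adjusted p = 0.00363), and Gjb2, a connexin, fell from 1398, 776 and 735 to 96 and 72 (-3.46 ± 0.43, adjusted p = 0.00115). Tight junctions, desmosomes and gap junctions thus each had at least 1 member that passed with any library left out. Cdh1 (E-cadherin) was at 1957, 2374 and 1593 and 333 and 376 (-2.46 ± 0.37, adjusted p = 0.00328). Cdh1 lost its call without HNF4aKO replicate 1 (adjusted p = 0.0599). The keratins Krt8 and Krt18 did not pass (-0.08 ± 0.50, adjusted p = 0.944 and -0.09 ± 0.48, adjusted p = 0.934). Over the junction list the number of falls was 4 without HNF4aKO replicate 1, 5 without WT replicate 1 or WT replicate 3 or HNF4aKO replicate 2 and 6 without CEBPaKO replicate 1.

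Genes of lipid synthesis fell in part. In cholesterol synthesis 2 of 24 genes fell, Sc5d and Lss, and in fatty acid and triglyceride synthesis 3 of 20 did, or 8.33% and 15.0% against 3.35% of all genes tested. At an unadjusted p under 0.05 in limma's test there were 9 and 11 genes in these lists. Sc5d, a late sterol desaturase, was at 1257, 1303 and 1954 in WT against 201 and 415 in HNF4aKO (-2.35 ± 0.39, adjusted p = 0.00582). Elovl2, which elongates polyunsaturated fatty acids, fell far more than the rest, from 6779, 5323 and 7814 to 275 and 373 (-4.35 ± 0.35, adjusted p = 0.000180). Sc5d lost its call without HNF4aKO replicate 1 (adjusted p = 0.117) and Lss without WT replicate 1 or 3 or either HNF4aKO replicate (adjusted p of 0.111 to 0.250). For cholesterol synthesis the number of falls was 0 without HNF4aKO replicate 1, 1 without WT replicate 1 or WT replicate 3 or HNF4aKO replicate 2, 4 without CEBPaKO replicate 2 and 5 without CEBPaKO replicate 3, and for fatty acid synthesis Elovl2 was the 1 fall left without WT replicate 1 or 3, CEBPaKO replicate 1 or either HNF4aKO replicate. Liver-secreted growth regulators moved both ways, with 6 falls and 2 rises among 18. Their largest fall was in Inhbe, an activin subunit, from 1822, 739 and 246 to 1 and 6 (-7.53 ± 0.90, adjusted p = 0.000941). Another activin subunit, Inhbb, rose from 68, 64 and 86 to 504 and 401 (2.62 ± 0.47, adjusted p = 0.00889). Inhbb lost its call without either HNF4aKO replicate (adjusted p of 0.0585 to 0.151). In this list the number of falls was 2 without HNF4aKO replicate 1 or HNF4aKO replicate 2 and 3 without WT replicate 1 or WT replicate 3, and the number of rises was 0 without HNF4aKO replicate 1, 0 without HNF4aKO replicate 2 and 1 without WT replicate 1 or 3 or CEBPaKO replicate 1.

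**Figure D2:**
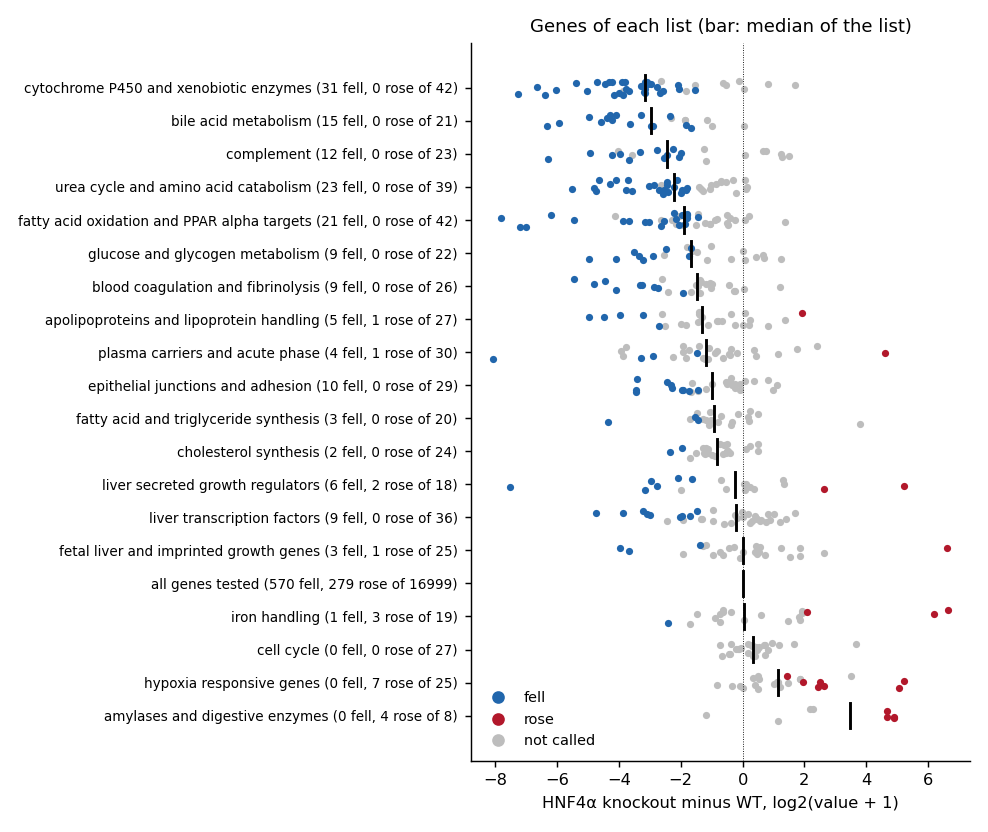
Log2 change of every tested member of each gene list (points, on the log2 (value + 1) scale) with the list's median (bars), and the median of all genes tested in a row of its own. The lists of bile acid, P450, fatty acid oxidation, amino acid and glucose genes lie to the left of 0, with medians from -3.16 to -1.67, and the amylases with other digestive enzymes (median 3.47) and hypoxia-responsive genes (median 1.15) lie to the right.

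Other genes of the 15 largest falls included a sulfotransferase, a dynein and P450 proteins. Sult3a1 was at 409, 398 and 377 in WT against 0 and 2 in HNF4aKO (-7.83 ± 0.92, adjusted p = 0.000888), and Dnahc17, an axonemal dynein chain, at 288, 209 and 618 and 1 and 2 (-7.10 ± 0.87, adjusted p = 0.00113). Serpina5, the protein C inhibitor, went from 304, 180 and 169 to 1 and 1 (-6.72 ± 0.82, adjusted p = 0.00106). These 3 were nearly absent from both knockout libraries. Cyp3a59 was listed at 0 in both HNF4aKO libraries against 66, 102 and 58 in WT. Cyp4a32 was at 261, 128 and 323 and 0 and 2 (-7.00 ± 1.06, adjusted p = 0.00363), and Cyp4a12b at 1610, 541 and 41 and 0 and 4 (-7.22 ± 1.32, adjusted p = 0.00999), the WT libraries of the latter spanning a wide range. Cyp4a32 lost its call without HNF4aKO replicate 1 (adjusted p = 0.0596) and Cyp4a12b without HNF4aKO replicate 1 (adjusted p = 0.151). With 10 in place of 1 added before the log2, the changes were -5.21 for Sult3a1, -4.32 for Serpina5, -4.40 for Cyp4a32 and -4.67 for Cyp2c54. Of the 15 largest falls 13 passed with any 1 library left out.

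The genes that rose most were of other kinds. Ranked by the change in the less changed knockout library, the 15 largest rises were Hamp2, Nnat, Ramp3, Mal, Hamp, Kcnip1, Jsrp1, Gpr142, C130021I20Rik, Kcnh2, Epo, Cidea, Pvalb, Onecut3 and Nos2. Nnat (neuronatin, chr2:157385814-157388258), an imprinted gene for a small membrane protein, reached the highest read values of them, with 261, 212 and 202 in WT against 25570 and 18922 in HNF4aKO (6.61 ± 0.48, adjusted p = 0.000180). Mal, a proteolipid of apical membranes, went from 1, 0 and 5 to 223 and 157 (6.36 ± 0.90, adjusted p = 0.00239), and Ramp3, a co-receptor for adrenomedullin, from 0, 6 and 7 to 302 and 433 (6.57 ± 1.05, adjusted p = 0.00470). Onecut3, a transcription factor of the HNF6 family, rose from 1, 6 and 1 to 101 and 144 (5.32 ± 0.77, adjusted p = 0.00275). Nnat and Onecut3 were the 2 of these 15 that passed with any 1 library left out. Genes of potassium channels were Kcnh2, at 14, 2 and 5 in WT against 285 and 240 in HNF4aKO (5.34 ± 0.92, adjusted p = 0.00702), and Kcnip1, at 0, 5 and 0 and 104 and 118 (5.94 ± 1.06, adjusted p = 0.00906). Cidea, a lipid droplet protein of brown fat, was at 4, 8 and 1 and 169 and 155 (5.18 ± 0.95, adjusted p = 0.0100), and Nos2, the inducible nitric oxide synthase, at 4, 0 and 0 and 80 and 55 (5.30 ± 1.09, adjusted p = 0.0186). Apart from Nnat, the genes described so far in this group had WT values at or below 14, so their fold depends on the 1 that was added before the log2 was taken. With 10 added, the changes were 4.06 for Mal, 3.39 for Onecut3, 3.40 for Kcnip1 and 2.77 for Nos2.

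Gpr142, a receptor of the G protein family, and C130021I20Rik, which the deposited table classes as antisense, were listed at 0 in all WT libraries and at 46 and 46 and at 40 and 37 in HNF4aKO. Whether the authors' counting used strand is not given in the sources used here, so reads of an antisense RNA and of its partner cannot be told apart. Jsrp1 and Pvalb, genes of muscle, stood at 655 and 86 and at 893 and 33 in HNF4aKO replicates 1 and 2, and in WT Jsrp1 was at 0, 3 and 0 and Pvalb at 0. Replicate 1, the library with muscle RNA, was the higher of the pair for both, and the part of muscle RNA in these rises was not tested. Mal lost its call without HNF4aKO replicate 1 (adjusted p = 0.0523) and Ramp3 without either HNF4aKO replicate (adjusted p of 0.0530 to 0.0581). Kcnh2 lost its call without either HNF4aKO replicate (adjusted p of 0.0528 to 0.101) and Kcnip1 without either HNF4aKO replicate (adjusted p of 0.0723 to 0.103). Cidea lost its call without either HNF4aKO replicate (adjusted p of 0.0754 to 0.136) and Nos2 without WT replicate 3 or either HNF4aKO replicate (adjusted p of 0.0541 to 0.211). Gpr142 lost its call without WT replicate 1 or either HNF4aKO replicate (adjusted p of 0.0533 to 0.167) and C130021I20Rik without WT replicate 1 or either HNF4aKO replicate (adjusted p of 0.0514 to 0.168). Jsrp1 lost its call without WT replicate 1 or HNF4aKO replicate 1 (adjusted p of 0.0584 to 0.266) and Pvalb without HNF4aKO replicate 1 (adjusted p = 0.186).

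Hepcidin, the hormone that closes the iron exporter ferroportin, rose in both of its copies. Hamp (chr7:31727390-31729036) was at 8, 72 and 46 in WT against 1924 and 2780 in HNF4aKO (6.20 ± 0.99, adjusted p = 0.00463), and Hamp2 was at 0, 2 and 0 and 149 and 136 (6.64 ± 1.01, adjusted p = 0.00371, or 3.84 with 10 added before the log2). The copies are near-identical, so reads may be shared between them. Id1, a target of the BMP pathway that controls hepcidin, rose from 223, 354 and 155 to 785 and 1238 (2.09 ± 0.45, adjusted p = 0.0228), and Tfr2, a transferrin receptor upstream of hepcidin, fell from 6451, 3942 and 4008 to 936 and 812 (-2.42 ± 0.50, adjusted p = 0.0180). These 4 were the members that passed among the 11 genes of hepcidin control, and none of the 8 genes of iron uptake, storage and export passed, 2 of them having an unadjusted p under 0.05 in limma's test. Hamp lost its call without either HNF4aKO replicate (adjusted p of 0.0527 to 0.0561) and Hamp2 without HNF4aKO replicate 1 (adjusted p = 0.0655). Id1 lost its call without WT replicate 1 or 3 or either HNF4aKO replicate (adjusted p of 0.0760 to 0.167) and Tfr2 without WT replicate 1 or either HNF4aKO replicate (adjusted p of 0.0838 to 0.151). In the iron list the number of rises was 0 without HNF4aKO replicate 1, 1 without HNF4aKO replicate 2 and 6 without CEBPaKO replicate 3, and the number of falls was 0 without WT replicate 1 or HNF4aKO replicate 1 or HNF4aKO replicate 2 and 2 without CEBPaKO replicate 3.

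The 4 rises among the digestive enzymes were all amylases of the Amy2a cluster on chromosome 3, which make pancreatic alpha-amylase. Amy2a5 (chr3:113052094-113061755) was at 37, 57 and 82 in WT against 1195 and 2419 in HNF4aKO (4.91 ± 0.57, adjusted p = 0.000886), Amy2a3 at 49, 67 and 86 and 1205 and 2412 (4.68 ± 0.65, adjusted p = 0.00210), and Amy2a2 at 48, 201 and 183 and 2156 and 6220 (4.91 ± 0.73, adjusted p = 0.00317). Replicate 2 was the higher of the knockout libraries at every copy. Near-identical copies can share reads, so the number of separate genes that rose is uncertain. The fifth amylase tested, Amy1, the salivary and liver form, had lower values in both knockout libraries than in WT without passing, at 1240, 1304 and 1605 and 410 and 886 (-1.19 ± 0.54, adjusted p = 0.237). Of the 10 other pancreatic acinar genes listed, 3 reached the filter and none passed (1 had an unadjusted p under 0.05 in limma's test). Cela1, the highest in WT reads, was at 327, 508 and 203 and 765 and 662 (1.14 ± 0.54, adjusted p = 0.255). Amy2a4 lost its call without HNF4aKO replicate 2 (adjusted p = 0.0647).

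Hypoxia-responsive genes rose in 7 of 25 cases and fell in none, with a median log2 change of 1.15. Epo (erythropoietin, chr5:137923487-137974470), the hormone of red cell production, was at 8, 14 and 0 in WT against 179 and 198 in HNF4aKO (5.21 ± 1.23, adjusted p = 0.0363). Cox4i2, a subunit of cytochrome oxidase made at low oxygen, went from 22, 34 and 8 to 728 and 571 (5.06 ± 0.77, adjusted p = 0.00379), Adm, the vasodilator adrenomedullin, from 95, 77 and 91 to 387 and 585 (2.43 ± 0.43, adjusted p = 0.00900), and P4ha2, a collagen prolyl hydroxylase, from 294, 201 and 261 to 1244 and 1579 (2.49 ± 0.46, adjusted p = 0.0102). Egln1, an oxygen-sensing prolyl hydroxylase, had the smallest of these rises, from 1375, 1525 and 1326 to 4299 and 3320 (1.43 ± 0.33, adjusted p = 0.0346). In glycolysis Hk2 rose from 283, 303 and 454 to 1300 and 1348 (1.96 ± 0.35, adjusted p = 0.00860) and Aldoa from 6655, 5224 and 4617 to 68583 and 16892 (2.65 ± 0.64, adjusted p = 0.0385), and Aldoa, an aldolase abundant in muscle, was far higher in the library with muscle RNA. Epo lost its call without WT replicate 1 or 3 or CEBPaKO replicate 1 or either HNF4aKO replicate (adjusted p of 0.0537 to 0.268) and Cox4i2 without HNF4aKO replicate 1 (adjusted p = 0.0698). Adm lost its call without either HNF4aKO replicate (adjusted p of 0.0677 to 0.107) and P4ha2 without either HNF4aKO replicate (adjusted p of 0.0944 to 0.0956). Egln1 lost its call without WT replicate 1, 2 or 3 or either HNF4aKO replicate (adjusted p of 0.0665 to 0.365) and Hk2 without WT replicate 1 or either HNF4aKO replicate (adjusted p of 0.0524 to 0.109). Aldoa lost its call without WT replicate 1, 2 or 3 or HNF4aKO replicate 1 (adjusted p of 0.0859 to 0.457). Over the list the number of rises was 0 without HNF4aKO replicate 1, 2 without HNF4aKO replicate 2, 3 without WT replicate 1 and 4 without WT replicate 3. Vegfa, Slc2a1 and Ldha did not pass (0.00 ± 0.77, adjusted p = 0.998, 1.12 ± 0.61, adjusted p = 0.319 and 1.13 ± 0.60, adjusted p = 0.301).

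Fetal liver genes went both ways. Of 25 oncofetal and imprinted genes 3 fell and Nnat alone rose (median log2 change 0.00), and 11 had an unadjusted p under 0.05 in limma's test. Phlda2, an imprinted gene that limits placental growth, fell from 251, 241 and 185 to 16 and 17 (-3.68 ± 0.51, adjusted p = 0.00208), and the trypsin inhibitor Spink3 from 263, 680 and 232 to 13 and 35 (-3.95 ± 0.62, adjusted p = 0.00423). Dlk1 was at 4553, 6236 and 3248 in WT against 21139 and 36836 in HNF4aKO without passing (2.63 ± 0.68, adjusted p = 0.0516), and Afp at 625821, 499143 and 706964 and 227430 and 305323 (-1.20 ± 1.22, adjusted p = 0.599). The groups did not overlap at Afp either, and its standard error likewise includes the spread among the CEBPaKO libraries. Spink3 lost its call without HNF4aKO replicate 1 (adjusted p = 0.0770). The list had 1 fall without HNF4aKO replicate 1, and the number of rises was 2 without WT replicate 3 or HNF4aKO replicate 2 and 3 without CEBPaKO replicate 2 or CEBPaKO replicate 3. None of 27 cell cycle genes passed (6 had an unadjusted p under 0.05 in limma's test, median log2 change 0.33), and Mki67 was at 5273, 8756 and 16260 and 4910 and 9682 (-0.40 ± 0.61, adjusted p = 0.738).

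**Figure D3:**
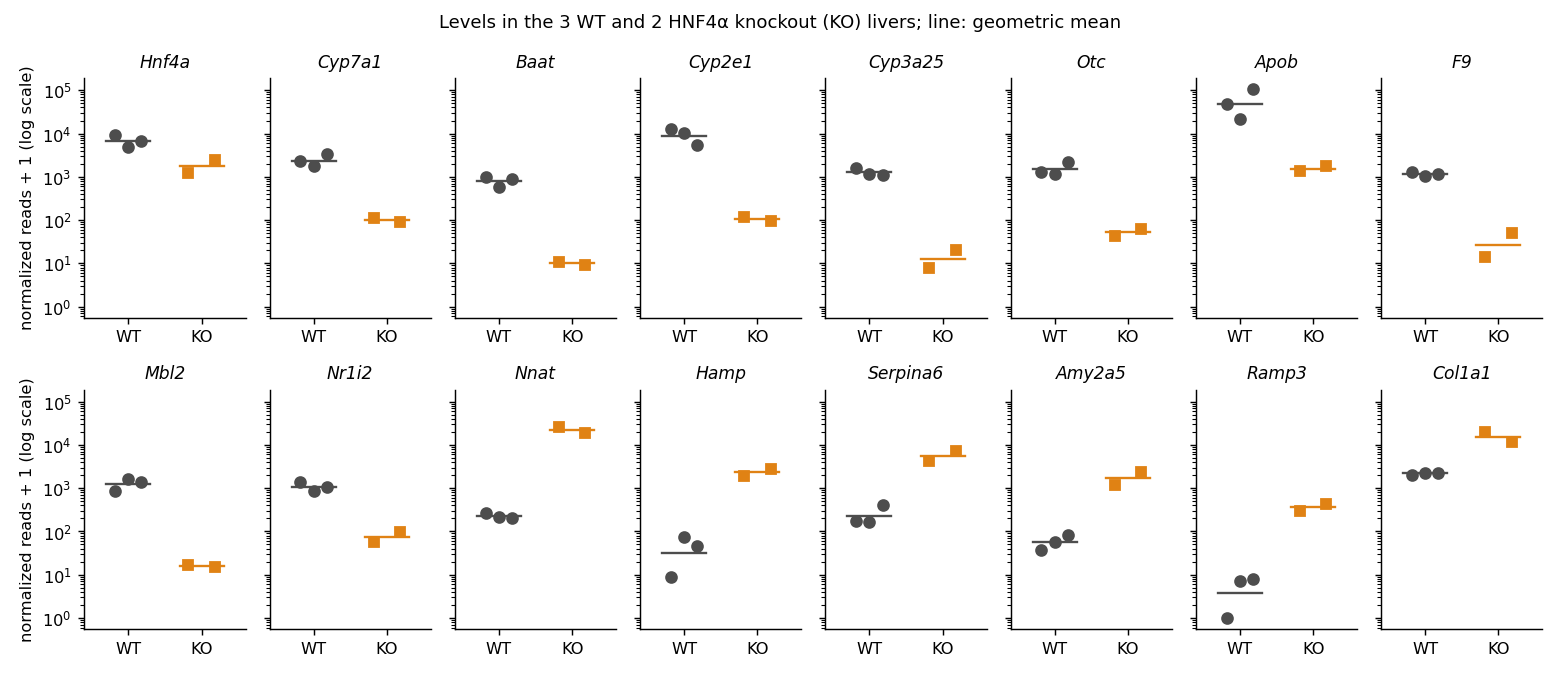
Normalised reads of 16 genes in the 3 WT and 2 HNF4aKO libraries (points, log axis of value + 1; lines are the geometric mean of value + 1 in each group). WT and HNF4aKO points do not overlap at any of the 16 genes, as a call required, from Cyp7a1 and Otc, which fell, to Nnat, Serpina6 and Col1a1, which rose.

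Some markers of other liver cells passed, and those of several cell types did not. The 10 hepatocyte markers summed to 17.0%, 11.8% and 19.9% in the WT libraries, against 4.63% and 8.20% in the HNF4aKO libraries, and 2 of 10 fell, Apob and Asgr1 (-2.88 ± 0.68, adjusted p = 0.0364). Asgr1 lost its call without WT replicate 1 or 2 or CEBPaKO replicate 1 or either HNF4aKO replicate (adjusted p of 0.0539 to 0.191). Among these markers the number of falls was 0 without HNF4aKO replicate 1 and 1 without WT replicate 1 or WT replicate 2 or CEBPaKO replicate 1 or HNF4aKO replicate 2. In whole liver, fewer hepatocytes and less RNA of a gene per hepatocyte cannot be told apart. The 13 erythroid markers, led by globins, summed to 7.74%, 14.5% and 4.19% in the WT libraries, against 20.2% and 16.4% in the HNF4aKO libraries, the knockout shares being the higher, and none of 13 passed (1 had an unadjusted p under 0.05 in limma's test, median log2 change 0.77). Markers of stellate cells and fibroblasts summed to 0.0715%, 0.0634% and 0.105% in the WT libraries, against 0.382% and 0.210% in the HNF4aKO libraries, and 4 of 13 rose. Col1a1, a chain of fibrillar collagen, was at 1980, 2291 and 2294 in WT against 19659 and 11721 in HNF4aKO (2.80 ± 0.40, adjusted p = 0.00239), and its partner Col1a2 at 2133, 1713 and 2424 and 14995 and 7197 (2.33 ± 0.45, adjusted p = 0.0129). Acta2, smooth muscle actin, went from 994, 375 and 970 to 4175 and 3474 (2.42 ± 0.45, adjusted p = 0.0105), and Ngfr, a neurotrophin receptor of stellate cells, from 216, 117 and 142 to 1250 and 967 (2.84 ± 0.47, adjusted p = 0.00586). Both collagen chains were highest in the library with muscle RNA, and the part of muscle RNA in these rises was not tested. Without HNF4aKO replicate 1 none of the 4 passed. Col1a1 lost its call without HNF4aKO replicate 1 (adjusted p = 0.0537) and Col1a2 without WT replicate 1 or HNF4aKO replicate 1 (adjusted p of 0.0565 to 0.218). Acta2 lost its call without either HNF4aKO replicate (adjusted p of 0.0603 to 0.148) and Ngfr without HNF4aKO replicate 1 (adjusted p = 0.104).

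Among 8 markers of endothelial tip cells, the leading cells of growing vessels, 4 rose (median log2 change 2.84), whereas none of 14 general endothelial markers passed (3 had an unadjusted p under 0.05 in limma's test, median 0.20). These 4 include Ramp3, already described among the 15 largest rises, and the list was chosen with earlier results of these data known. Esm1, a secreted tip cell proteoglycan, rose from 7, 10 and 16 to 340 and 488 (5.16 ± 0.67, adjusted p = 0.00142), the placental growth factor Pgf from 6, 22 and 9 to 179 and 156 (3.84 ± 0.93, adjusted p = 0.0404), and the netrin receptor Unc5b from 166, 211 and 193 to 841 and 912 (2.21 ± 0.42, adjusted p = 0.0129). Their sum was small throughout, at 0.00864%, 0.00773% and 0.00669% in the WT libraries, against 0.0163% and 0.0199% in the HNF4aKO libraries. Pgf lost its call without WT replicate 1 or 3 or either HNF4aKO replicate (adjusted p of 0.105 to 0.320) and Unc5b without WT replicate 1 or either HNF4aKO replicate (adjusted p of 0.0638 to 0.134). In this list the number of rises was 1 without HNF4aKO replicate 1 or HNF4aKO replicate 2 and 2 without WT replicate 1. Of 12 macrophage markers Cd68 alone rose, from 300, 354 and 246 to 951 and 978 (1.70 ± 0.42, adjusted p = 0.0446). Cd68 lost its call without WT replicate 1, 2 or 3 or either HNF4aKO replicate (adjusted p of 0.0684 to 0.315). For macrophage markers the number of rises was 0 without WT replicate 1 or WT replicate 2 or WT replicate 3 or HNF4aKO replicate 1 or HNF4aKO replicate 2 and 3 without CEBPaKO replicate 2 or CEBPaKO replicate 3. They summed to 0.0689%, 0.0776% and 0.0765% in the WT libraries, against 0.106% and 0.164% in the HNF4aKO libraries, and those of neutrophils and their precursors to 0.204%, 0.305% and 0.236% in the WT libraries, against 0.436% and 0.513% in the HNF4aKO libraries, where none of 9 passed (3 had an unadjusted p under 0.05 in limma's test, median log2 change 1.12). No marker of bile duct cells (8 tested), lymphocytes (6) or megakaryocytes (7) passed, and none had an unadjusted p under 0.05 in limma's test. The part of these cell types in the rises of other genes was not tested.

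The same study mapped HNF4α binding in livers by chromatin immunoprecipitation, in 2 biological replicates per stage, and the peak lists were set beside the expression changes as a description. A bound region was a stretch of merged peaks that held a peak of each replicate, of which there were 18359 at E18.5. A region lay within 10 kb of the gene start for 344 of the 570 genes that fell (60.4%), for 29 of the 279 that rose (10.4%) and for 3027 of the 16150 others (18.7%). A region covered the start itself at 113 falls (19.8%), at 1 rise (0.358%, Tnfrsf9) and at 403 other genes (2.50%). The median distance from start to nearest region was 5369.5 bp for the falls, 50763 bp for the rises and 44064 bp for the others. Within 1 kb the shares were 31.1%, 3.23% and 5.43%, and within 50 kb they were 86.0%, 49.8% and 53.9%. With the P60 regions in place of those of E18.5 they were 88.4%, 37.6% and 47.8% within 10 kb, with the E15.5 regions 85.6%, 44.1% and 49.0%, and with peaks of either E18.5 replicate 80.9%, 25.8% and 38.7%. The genes that fell had the highest share at every distance and stage examined.

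Genes that fell also had higher WT read values than the rest, so the shares were taken within ranges of the WT mean. Among genes with a WT mean under 100, 32.1% of 53 falls and 14.4% of 5213 uncalled genes had a region within 10 kb. Among those of 100 to under 1000, 61.7% of 240 falls and 17.8% of 8153 uncalled genes did. From 1000 to under 10000 the shares were 64.5% of 262 and 28.3% of 2640. At 10000 or more they were 66.7% of 15 and 55.6% of 144, much closer together. The falls had the higher share in each range, and the difference was widest from 100 to under 1000 and narrower below and above it. For the rises the share was 10.1% of 148 under 100, 8.82% of 102 from 100 to under 1000 and 17.2% of 29 from 1000 to under 10000, below the uncalled genes in each range.

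Named genes differed in how near a region lay. A region covered the start of Apob, F9, Nr1i2, Nr1i3, G6pc, Hgd, Gys2 and Tfr2, all of which fell, the one at F9 being chrX:57252398-57252795 and the one at Apob chr12:7984171-7984603 in mm9. The nearest region was 470 bp from the start of Ppara, 1178 bp from Serpina3k, 2920 bp from Mbl2, 3869 bp from Baat and 4066 bp from Cyp8b1. It was further off at Otc (12481 bp) and Cyp7a1 (29143 bp), so these falls were without a region of both E18.5 replicates inside 10 kb. Fewer regions held a peak of both replicates at E18.5 (18359) than at E15.5 (35764) or P60 (36322). Distances of single genes to the other sets are not given here. Among the rises Nnat (9357 bp) and Hamp (9973 bp) lay just inside 10 kb, and Serpina6 (20989 bp), Amy2a5 (26784 bp), Epo (36303 bp) and Ramp3 (91263 bp) outside.

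**Figure D4:**
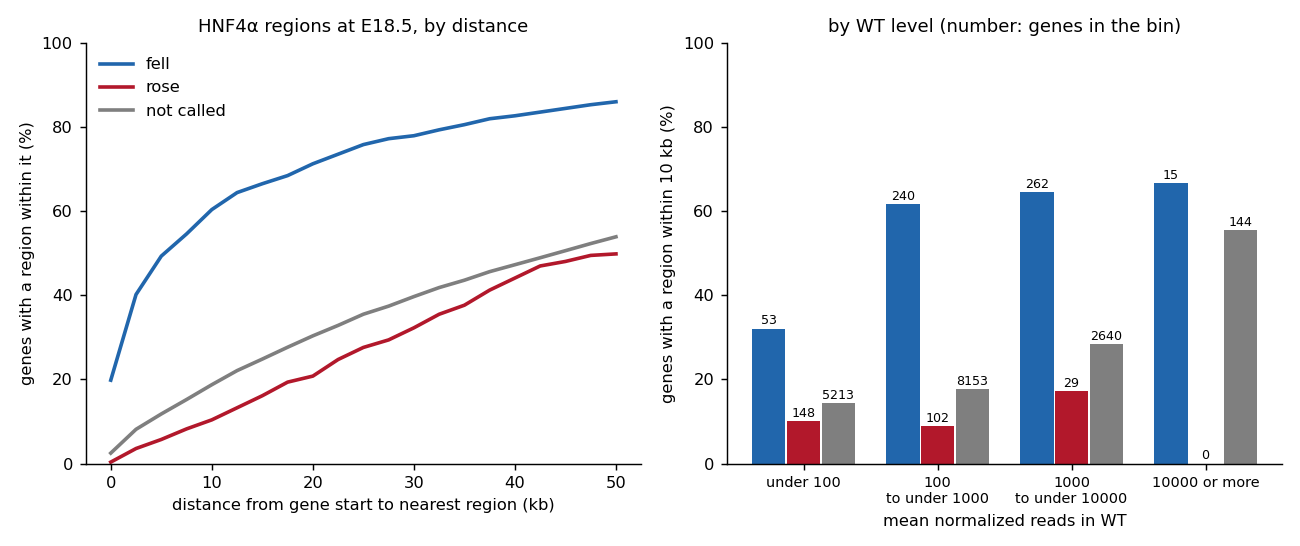
Share of genes with an HNF4α region of both E18.5 replicates near the start, by distance (left) and, within 10 kb, by WT mean (right, number of genes above each bar), for genes that fell, rose or were not called. At 10 kb the shares are 60.4%, 10.4% and 18.7%, and at a WT mean of 10000 or more the falls (66.7%) and uncalled genes (55.6%) come close.

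Promoters are printed for the 5 falls with the largest change that had a bound region over the start and a RefSeq promoter entry, and for F9, chosen after its values were seen because a motif lies at its start. The sequences are RefSeq promoters of build GRCm38.p6, from 250 bases before the start to 10 after it, 5′ to 3′ on the gene's strand. Capitals mark CAAAGTCCA or CAAAGGTCA, 2 forms of the HNF4 recognition sequence searched on both strands.
Cyp3a25: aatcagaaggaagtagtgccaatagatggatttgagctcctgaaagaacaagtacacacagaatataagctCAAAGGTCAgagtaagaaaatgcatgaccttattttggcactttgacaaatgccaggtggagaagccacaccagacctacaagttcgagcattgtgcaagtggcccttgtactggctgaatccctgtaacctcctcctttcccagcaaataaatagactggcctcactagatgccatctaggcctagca
Cyp2a22: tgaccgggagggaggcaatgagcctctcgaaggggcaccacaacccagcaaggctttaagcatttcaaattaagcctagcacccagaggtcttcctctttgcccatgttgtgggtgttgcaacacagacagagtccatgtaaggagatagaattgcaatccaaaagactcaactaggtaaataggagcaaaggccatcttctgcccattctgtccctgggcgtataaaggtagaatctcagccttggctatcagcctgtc
Bhmt: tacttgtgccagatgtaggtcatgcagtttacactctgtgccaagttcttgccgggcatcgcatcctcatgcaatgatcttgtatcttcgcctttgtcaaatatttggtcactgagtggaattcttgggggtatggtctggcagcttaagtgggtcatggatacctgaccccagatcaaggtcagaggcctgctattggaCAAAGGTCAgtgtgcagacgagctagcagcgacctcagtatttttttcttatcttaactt
Cyp2a12: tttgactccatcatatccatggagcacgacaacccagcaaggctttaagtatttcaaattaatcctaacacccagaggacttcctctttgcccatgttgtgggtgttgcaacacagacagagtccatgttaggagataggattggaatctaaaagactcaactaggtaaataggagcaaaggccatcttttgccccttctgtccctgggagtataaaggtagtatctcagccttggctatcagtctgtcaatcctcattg
Cyp2c69: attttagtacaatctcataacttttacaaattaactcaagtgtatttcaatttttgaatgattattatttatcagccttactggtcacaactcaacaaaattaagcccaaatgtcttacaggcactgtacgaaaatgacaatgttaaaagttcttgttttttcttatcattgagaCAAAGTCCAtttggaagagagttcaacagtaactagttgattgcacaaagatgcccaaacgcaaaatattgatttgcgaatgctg
F9: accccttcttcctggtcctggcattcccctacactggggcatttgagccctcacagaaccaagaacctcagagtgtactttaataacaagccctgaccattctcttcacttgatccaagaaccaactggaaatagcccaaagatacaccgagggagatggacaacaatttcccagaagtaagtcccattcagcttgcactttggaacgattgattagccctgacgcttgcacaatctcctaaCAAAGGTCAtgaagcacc

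The sequence of Cyp3a25 is chr5:146009609-146009868, minus strand, with the motif CAAAGGTCA beginning 179 bases before the start. That of Cyp2a22 is chr7:26939377-26939636, minus strand, that of Bhmt chr13:93637749-93638008, minus strand with the motif 50 bases before the start, and that of Cyp2a12 chr7:27028840-27029099, plus strand. Cyp2c69 is at chr19:39886760-39887019, minus strand and has CAAAGTCCA 75 bases before the start, and F9 is at chrX:59999214-59999473, plus strand with CAAAGGTCA beginning 8 bases before it. In mm9 coordinates, the bound regions lay at chr5:146820961-146821508 for Cyp3a25 and chr13:94407426-94408015 for Bhmt. Of the genes not yet described, Cyp2a22, a P450, was at 272, 244 and 272 in WT against 4 and 4 in HNF4aKO (-5.72 ± 0.70, adjusted p = 0.00110), and Cyp2c69 at 5810, 4764 and 11708 and 189 and 239 (-5.01 ± 0.44, adjusted p = 0.000273). Among the 388 falls that matched a RefSeq promoter, 32 (8.25%) had either motif between 250 bases before and 50 after the start, against 296 of all 27025 genes with a promoter listed (1.10%), 2 of 175 rises (1.14%) and 88 of 9816 uncalled genes (0.896%). Where a region also covered the start, it was 17 of 91 falls (18.7%) and 6 of 249 uncalled genes (2.41%). A match of these letters describes the sequence and does not show a binding site, and most bound promoters, those of Cyp2a22 and Cyp2a12 included, had neither form.

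HNF4aKO and CEBPaKO livers were set against each other in the same fit to see which changes differed between the knockouts, and both share the WT libraries. Baat was lower in HNF4aKO (log2 difference -6.27 ± 0.56, adjusted p = 0.000817), as were Otc (-3.91 ± 0.39, adjusted p = 0.00116), Bhmt (-4.29 ± 0.62, adjusted p = 0.00436) and C9 (-4.19 ± 0.51, adjusted p = 0.00227). Nnat (5.27 ± 0.48, adjusted p = 0.000817), Hamp (7.42 ± 0.99, adjusted p = 0.00316) and Amy2a5 (7.25 ± 0.57, adjusted p = 0.000624) were higher in HNF4aKO. Serpina6, which rose in HNF4aKO, was higher still in CEBPaKO (-2.61 ± 0.52, adjusted p = 0.0219), and Slc10a1, which fell in HNF4aKO, was nonetheless above CEBPaKO (3.29 ± 0.39, adjusted p = 0.00225). For Nr1h4 the difference was 0.01 ± 0.40, adjusted p = 0.991, for Cyp7a1 -1.05 ± 0.47, adjusted p = 0.263 and for F9 1.06 ± 0.58, adjusted p = 0.356, none of which passed. Of the 15 largest falls, Serpina3k, Sult3a1, Cyp2e1 and Cyp3a25 were also far below WT in CEBPaKO (-7.94, -7.36, -5.39 and -8.27). Their differences between the knockouts did not pass (adjusted p of 0.315 to 0.965), whereas those of Baat, Mbl2 and Cyp4a10 did. Onecut3 was also above WT in CEBPaKO (3.53 ± 0.69, adjusted p = 0.0159), and its difference between the knockouts did not pass (1.79 ± 0.77, adjusted p = 0.243).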

How the data were processed

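The deposited table holds one score per gene and library: per its title and the submitters' processing notes (TopHat2, Cufflinks, DESeq; mm9), the authors normalised reads with DESeq and rounded them, so the values are not raw counts and how reads were counted is not given in the sources used here. The GC content per gene is a fraction from the same deposited table. The peak lists of HNF4α, which carry a deposited score column that was not used, were called with MACS 1.4 per the submitters' processing notes.

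Genes with a value of 10 or more in at least 2 of the 5 libraries were tested with limma 3.58.1 (R 4.3.3) on log2 (value + 1), with a mean-variance trend and all 8 RNA libraries in 1 fit; p-values were Benjamini-Hochberg adjusted over all genes tested. A call needed adjusted p under 0.05, a 2-fold change in each HNF4aKO library and no overlap. The fit was tested on simulated data. Genes were named by the smaller of the 2 library changes: the 15 largest in each direction and, in each list, the largest by role. The members and lists were chosen with earlier results of these data known. Replicate numbers were not used as pairs in the main fit. Correlations of same-numbered deviations were 0.13 and 0.03 between WT and HNF4aKO, from 2 pairs. The deviations of 2 HNF4aKO libraries mirror each other, so this check cannot show whether the libraries were paired. Alternatives changed the filter, the added constant, the scaling, the libraries, the variance estimate and the replicate block. Gene starts and regions were compared in mm9 with Python 3.11.15, and promoter sequences came from RefSeq (GRCm38.p6), matched by symbol. Results for some genes are not reported here.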

Additional observations from a re-analysis of the deposited data

How the results depend on the processing

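No gene named in the text that had been called changed direction in any alternative. The count of changed genes was 949 (361 rises, 588 falls) with 10 added before the log2, 820 (263 and 557) at a filter of 100 and 666 (208 and 458) with every gene above 0 in any of the 5 libraries. It was 777 (233 and 544) after scaling to equal totals, 869 (333 and 536) after scaling to equal upper quartiles, and 841 (274 and 567) with robust variance estimates. Fitting the 5 WT and HNF4aKO libraries alone gave 1429, of which 589 rose and 840 fell, and 837 of the 849 were among them. With the replicate block the count was 511, of which 152 rose and 359 fell, 484 of them shared. The labels give the same-numbered libraries only a shared number, and whether they were paired is not known. When 1 library was left out the counts ran from 210 to 1359, the rises from 23 to 569 and the falls from 187 to 790. An alternative chosen after seeing the data left out WT replicate 3 and CEBPaKO replicate 1, the libraries whose deviations from their group mean fell most with GC content. It gave 361 changed genes, 75 rises and 286 falls. Of the 208 named or listed changed genes, 122 lost the call without HNF4aKO replicate 1, 100 without HNF4aKO replicate 2, 86 without WT replicate 3 and CEBPaKO replicate 1, 76 without WT replicate 1, 52 without WT replicate 3, 51 with the replicate block, 32 with every gene above 0 tested and 29 without WT replicate 2, and 19 or fewer in each of the others. With 10 added before the log2, 15 of the 208 had a log2 change more than 1.5 times smaller, 9 of them rises and 6 falls, and 1, Sult1b1, lost its call.

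With 2 knockout libraries, 1 of them holding muscle RNA, a missed threshold does not show that a gene was unaffected. The deposited values were already normalised and rounded, so the read depth behind each is unknown, and genes near 0 carry the least precise changes. The median GC content was 0.518 for the genes that rose, 0.441 for those that fell and 0.466 for uncalled genes. Age, sex and the relation to GC content differ or are uncertain among the libraries, and their part in the changes was not tested.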
